A study of Drosophila melanogaster with 12 samples.

Results

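The genes described here encode the aminoacyl-tRNA synthetases, the enzymes that join each amino acid to its tRNA before the tRNA enters the ribosome. They were chosen by gene symbol: a protein-coding gene entered when its symbol was an amino acid abbreviation, or the fused GluPro, followed by RS. The rule found 33 of the 12710 protein-coding genes in the tables. The 15 marked by the suffix -m were counted as mitochondrial forms and the other 18 as cytosolic forms. *GlnRS*, *GlyRS*, *HisRS*, *LysRS* and *ThrRS* had no -m partner, and any mitochondrial product of these genes was not separated here. The rule itself uses no measured value, and all 33 had enough reads to be tested in each of the 3 comparisons. The subunits of the cytosolic phenylalanine enzyme, *alpha-PheRS* and *beta-PheRS*, are named differently, fall outside the rule and were not counted.

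A cell holds separate protein synthesis machineries in the cytosol and in the mitochondrial matrix. Both sets of synthetases are encoded in the nucleus, and the mitochondrial enzymes are imported to charge the tRNAs transcribed from mitochondrial DNA, which serve the translation of a small set of respiratory chain subunits, several of them parts of complex I. Most amino acids have a gene for each compartment, but in human cells a single gene supplies both for glycine and for lysine. In mammals several cytosolic synthetases, among them the enzymes for glutamate and proline, isoleucine, leucine, methionine, glutamine, lysine, arginine and aspartate, sit in a multisynthetase complex held together by AIMP scaffold proteins. The same mammalian work places many cytosolic synthetase genes among the targets of the transcription factor ATF4, called *crc* in *Drosophila*, which is translated when the initiation factor eIF2α is phosphorylated.

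The study compared a weak and a strong knockdown of ND-75, the *Drosophila* NDUFS1 subunit of mitochondrial complex I, in neurons. The controls (nSybGal4/w[1118]) carried the driver with a *white* mutant allele and no RNAi transgene, so an unrelated RNAi line was not part of the control. The ND-75KDweak and ND-75KDstrong flies carried nSybGal4 with the weak or the strong ND-75 RNAi line, which the study's methods give as different lines. The study's methods add *Tub-Gal80ts*, a temperature-sensitive repressor of Gal4, to all 3 genotypes; the sample labels do not name it. Each genotype had 4 libraries, each made from 20 heads, 10 male and 10 female, of flies 2 days old. Nothing in the labels says whether the pools of a genotype were bred apart, and the p-values therefore reflect differences between pools that may be technical. *nSyb-Gal4* acts in neurons, whereas the heads also held glia, fat body and muscle. In these whole-head libraries fewer cells of a type and less RNA per cell therefore cannot be told apart.

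The libraries held between 19309456 and 34169998 counted reads. *ND-75*, the target, was measured at 716, 852, 1380 and 832 CPM (counts scaled to a common library size) in control replicates 1 to 4, at 641, 665, 617 and 564 CPM in ND-75KDweak and at 548, 537, 453 and 639 CPM in ND-75KDstrong. Every knockdown library lay below every control library. The log2 fold change against control was -0.59 ± 0.20 (SE) in ND-75KDweak (edgeR adjusted p = 0.116) and -0.79 ± 0.22 in ND-75KDstrong (adjusted p = 0.117), neither past the threshold of 0.05, and between the knockdowns it was -0.18 with an adjusted p of 0.432. Without control replicate 3, the highest library, it was -0.36 in ND-75KDweak (adjusted p = 0.0551) and -0.54 in ND-75KDstrong (adjusted p = 0.109). Control replicate 3 and ND-75KDstrong replicate 4 stood apart from the rest of their groups. They had the fewest features detected in their genotypes, 12966 and 13729, and many synthetases peaked in them, so the main results are given below with and without them. Among markers fixed for the tissues of the head, 0 of 6 for neurons and 0 of 5 for glia were called in any comparison by edgeR or by DESeq2, with 0 passing an unadjusted p under 0.05 for neurons and at most 2 for glia. The summed glia level was nevertheless below every control in ND-75KDweak, at 2499 to 2681 CPM against 2707 to 2824 CPM. In ND-75KDstrong it was 2402 to 2723 CPM. The summed neuron level varied widely, at 1238 to 2458 CPM in the controls, 1872 to 2112 CPM in ND-75KDweak and 1197 to 2342 CPM in ND-75KDstrong.

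In control heads, the cytosolic synthetases were the more abundant class per length. Their median level was 15.2 FPKM (CPM per kilobase of exon), that of the mitochondrial forms was 5.25 FPKM, and that of the 9645 protein-coding genes tested was 10.5 FPKM. The highest 4 cytosolic genes were *TyrRS* at 61.0 ± 26.7 FPKM (SD, n = 4), *HisRS* at 43.9 ± 28.1, *ThrRS* at 39.3 ± 11 and *LysRS* at 38.0 ± 6.11, which charge tyrosine, histidine, threonine and lysine tRNAs. The place of *HisRS* rested on control replicate 3: without it *HisRS* was at 29.9 ± 2.99 FPKM (SD, n = 3), below *LysRS* at 36.8, *ThrRS* at 33.8 and *AsnRS* at 33.4. The lowest 4 were *GluProRS* at 9.25 ± 1.46 FPKM, *ArgRS* at 8.23 ± 0.997, *MetRS* at 7.71 ± 0.878 and *CysRS* at 7.505 ± 0.931. Of the 18 cytosolic genes, 12 lay above the protein-coding median, against 4 of the 15 mitochondrial genes.

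The mitochondrial class covered a wider range. *PheRS-m*, which works as a single chain unlike the multi-subunit cytosolic phenylalanine enzyme, reached 46.2 ± 16.1 FPKM and stood second among all 33 genes. The next 3 were *AlaRS-m* at 11.1 ± 2.55 FPKM, *TyrRS-m* at 11.04 ± 3.23 and *TrpRS-m* at 10.6 ± 1.53, and these 3 lay between 9.44 and 9.83 FPKM without control replicate 3, on either side of *AspRS-m* at 9.50. The lowest 4 were *ValRS-m* at 2.26 ± 0.239 FPKM, *MetRS-m* at 2.17 ± 0.192, *IleRS-m* at 1.95 ± 0.585 and *GluRS-m* at 1.86 ± 0.422. These low genes still had enough counts for a test: the lowest count of any synthetase in a control library was 56, for *GluRS-m*. Neighbours in the order could mostly not be separated, since the control libraries of 30 of 32 neighbouring pairs overlapped. The exceptions were *AlaRS* above *GlyRS* and *ArgRS-m* above *ValRS-m*. Leaving out control replicate 3 gave class medians of 15.3 and 5.11 FPKM.

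**Figure D1:**
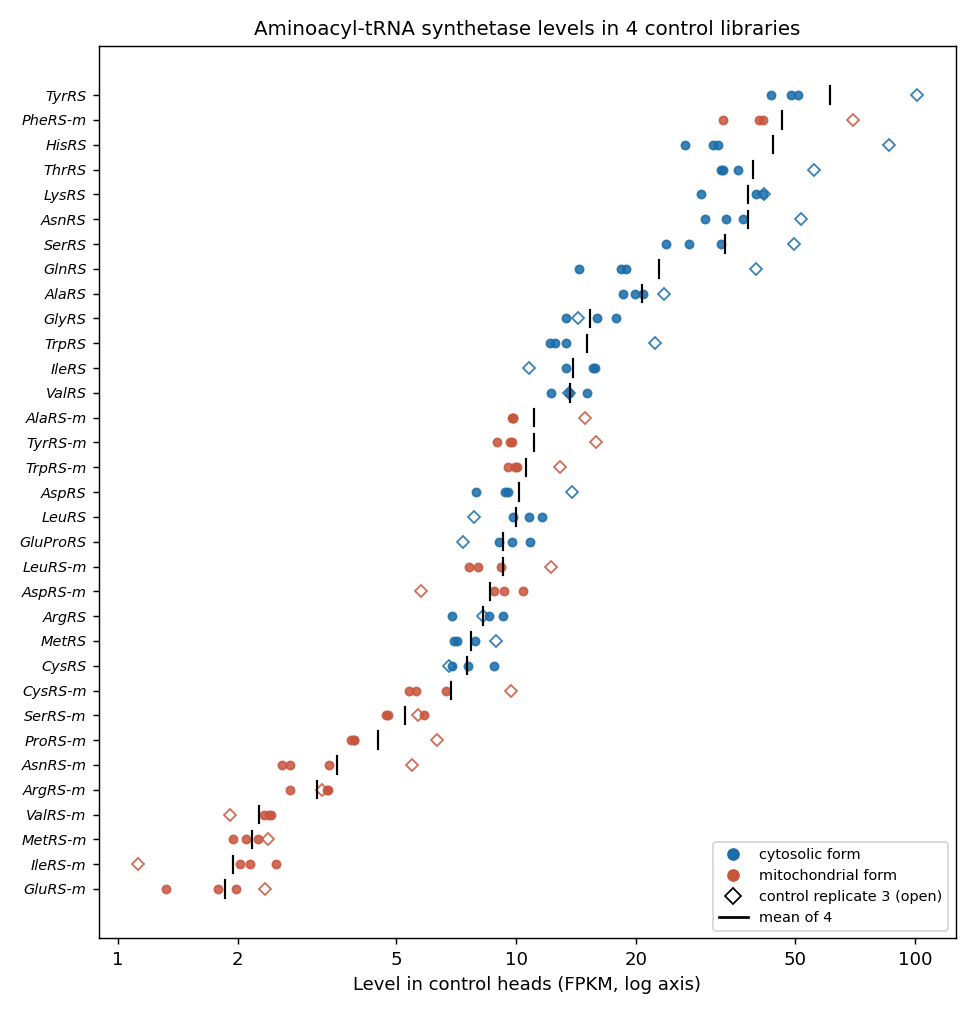
Level of each of the 33 synthetase genes in the 4 control libraries, in FPKM on a log axis, ordered by the mean (black tick), with cytosolic forms in blue, mitochondrial forms in red and control replicate 3 as open diamonds. All of the 10 highest genes but *PheRS-m* were cytosolic, and the open diamond was the highest point in 11 cytosolic and 10 mitochondrial genes.

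In ND-75KDweak heads the mitochondrial synthetases lay mostly below control, although no synthetase passed the adjusted threshold. The 15 mitochondrial genes had a median log2 fold change of -0.24, with 12 negative and 3 positive, and the 18 cytosolic genes one of -0.16, with 13 negative and 5 positive, while the median over all 10415 features tested was -0.0065. With edgeR 0 of 33 were called in either direction, where 2.56% of all features were called higher and 3.98% lower. With no adjustment, 6 mitochondrial genes were lower at p under 0.05 and 0 of the 18 cytosolic genes differed. Of the cytosolic phenylalanine subunits outside the rule, *alpha-PheRS* was also lower (-0.61 ± 0.24, edgeR unadjusted p = 0.0292, adjusted p = 0.185). The other subunit, *beta-PheRS*, was at -0.083 ± 0.16 (adjusted p = 0.804). Of all 10415 features, 20.7% reached that level, 1249 of them lower and 909 higher. DESeq2 called 1 gene, *MetRS-m*, lower (adjusted p = 0.0486).

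*MetRS-m*, which in the matrix charges the single methionine tRNA used for both initiation and elongation, had the smallest p. It measured 8.38, 9.68, 10.3 and 9.03 CPM in the controls, 5.94, 7.57, 6.97 and 5.90 CPM in ND-75KDweak and 8.06, 6.34, 7.53 and 8.81 CPM in ND-75KDstrong. All 4 ND-75KDweak values were below the lowest control, with a log2 fold change of -0.49 ± 0.15 (edgeR adjusted p = 0.0842). *TyrRS-m*, the mitochondrial tyrosine enzyme, measured 14.99, 13.7, 24.4 and 14.9 CPM in the controls and 11.9, 12.6, 12.8 and 10.9 CPM in ND-75KDweak. These groups did not overlap either (-0.49 ± 0.19, adjusted p = 0.176). *AlaRS-m*, the mitochondrial alanine enzyme, measured 31.5, 31.6, 48.1 and 31.8 CPM in the controls against 26.5, 29.3, 26.6 and 25.3 CPM (-0.40 ± 0.16, adjusted p = 0.193). *CysRS-m*, which charges cysteine tRNA in the matrix, measured 11.4, 14.0, 20.4 and 11.8 CPM in the controls against 10.2, 10.7, 10.6 and 10.3 CPM (-0.46 ± 0.19, adjusted p = 0.209). Of the exonic bases of *CysRS-m*, 14.3% are shared with *CG13016*, and unstranded reads there could not be split.

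In these 4 genes every ND-75KDweak library lay below every control library, and control replicate 3 was the highest library. Without it the log2 fold change was -0.45 for *MetRS-m* (adjusted p = 0.0697), -0.27 for *TyrRS-m* (adjusted p = 0.147), -0.23 for *AlaRS-m* (adjusted p = 0.131) and -0.25 for *CysRS-m* (adjusted p = 0.211). Over all features 9.07% were separated in this way downwards and 6.57% upwards. Upwards the only synthetase was *LysRS*, named here after its values were seen, which measured 90.3, 94.0, 94.8 and 65.6 CPM in the controls and 108, 99.0, 113 and 106 CPM in ND-75KDweak (0.32 ± 0.15, adjusted p = 0.251). Without control replicate 3 and ND-75KDweak replicate 2 together, 3 mitochondrial genes were called lower, *MetRS-m* at -0.52, *ValRS-m* at -0.49 and *AlaRS-m* at -0.27, with adjusted p-values of 0.022, 0.0308 and 0.0441. The share of all features called in that setting was not counted, so these 3 calls have no background share beside them. The mitochondrial median was then -0.21 and the cytosolic median -0.11. Without control replicate 3 alone the mitochondrial median was -0.23, with 12 of 15 negative, and the cytosolic median -0.06, with 12 of 18 negative.

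Marker genes of other tissues moved in the same comparison. Of 8 fat body markers, *Yp1*, *Yp2* and *Lsp2*, which encode yolk and storage proteins, were higher in ND-75KDweak and *Fbp1*, *Fbp2* and *Lsp1gamma* were lower, and the markers' summed level ran from 50766 to 71826 CPM against 34573 to 41504 CPM in the controls. Of 5 muscle markers tested *Mlc2*, a myosin light chain, was lower (-0.91 ± 0.21, adjusted p = 0.0283). The summed muscle level was 4243 to 7448 CPM against 6894 to 9589 CPM. No list had a gene at 0 counts throughout. The part of these tissues in the synthetase values was not tested.

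**Figure D2:**
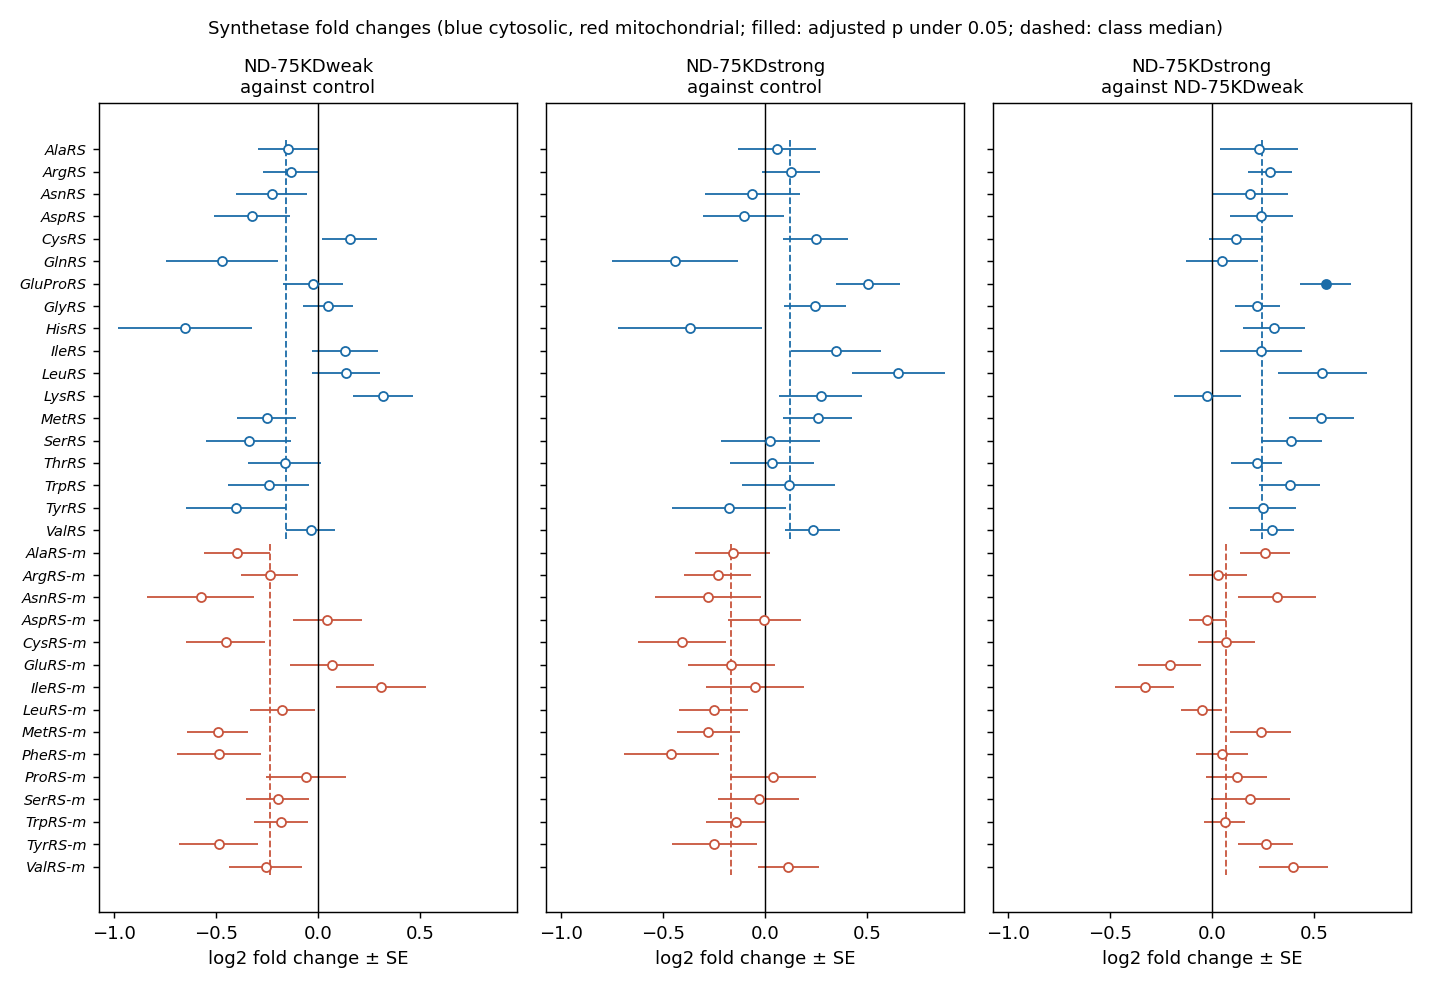
Log2 fold change of each synthetase (point, bar = SE) in the 3 comparisons, cytosolic forms in blue above and mitochondrial forms in red below, with the class median dashed and filled points past an adjusted p of 0.05. The single filled point is *GluProRS* in ND-75KDstrong against ND-75KDweak; there 17 of 18 cytosolic points lie right of 0.

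In ND-75KDstrong heads the classes lay on opposite sides of the control level. The cytosolic median log2 fold change was 0.12, with 13 positive and 5 negative, and the mitochondrial median was -0.17, with 2 positive and 13 negative. The median over 10522 features was -0.015. With edgeR 0 of 33 genes were called, where 1.78% of all features were called higher and 0.589% lower, and DESeq2 called 0 as well. At an unadjusted p under 0.05, 2 genes differed, both cytosolic and both higher. Of all 10522 features, 11.4% reached that level, 703 of them higher and 493 lower. The difference between the classes was not tested.

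The genes with the smallest p were *GluProRS* and *LeuRS*. *GluProRS* encodes a bifunctional enzyme, which charges glutamate and proline tRNAs from a single polypeptide. It measured 49.3, 53.3, 40.1 and 59.1 CPM in the controls, 44.7, 58.3, 49.7 and 43.7 CPM in ND-75KDweak and 66.6, 68.8, 65.7 and 84.6 CPM in ND-75KDstrong. Each ND-75KDstrong library exceeded every library of the other genotypes. Against control the log2 fold change was 0.50 ± 0.16, a rise of 41.7% in the fitted level that did not pass the threshold (edgeR adjusted p = 0.191). *LeuRS*, which charges leucine tRNA and is described in human cells as a leucine sensor for TORC1, measured 45.6, 42.3, 30.8 and 38.6 CPM in the controls, 39.3, 55.1, 40.2 and 36.8 CPM in ND-75KDweak and 60.5, 48.1, 46.7 and 91.6 CPM in ND-75KDstrong. It was also separated from control (0.65 ± 0.23, adjusted p = 0.249), but overlapped with ND-75KDweak, and its highest library was ND-75KDstrong replicate 4. Without that library *LeuRS* was higher by 0.42 (adjusted p = 0.331), and without control replicate 3 as well by 0.32 (adjusted p = 0.211), where *GluProRS* was higher by 0.34 (adjusted p = 0.0992). Over all features 4.62% were separated from control upwards and 4.08% downwards.

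Two-sided exact permutation tests on the CPM gave p = 0.0286 for both genes, which is the smallest that 4 against 4 libraries allow. That value is fixed by the lack of overlap with control and adds nothing to it. Every feature separated from control has the same value. The next smallest edgeR p-values belonged to mitochondrial genes. *PheRS-m* measured 50.4, 63.5, 106 and 61.9 CPM in the controls, 51.1, 48.1, 49.8 and 51.1 CPM in ND-75KDweak and 49.4, 48.4, 42.1 and 64.8 CPM in ND-75KDstrong (-0.46 against control, edgeR adjusted p = 0.512). *CysRS-m* measured 11.6, 8.62, 9.86 and 13.3 CPM in ND-75KDstrong (-0.41, adjusted p = 0.547). Both overlapped with the controls, whose replicate 3 was the highest library in each. Without that library the values were -0.18 for *PheRS-m* (adjusted p = 0.698) and -0.18 for *CysRS-m* (adjusted p = 0.724).

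These class medians moved with the libraries that stood apart. Without control replicate 3 the cytosolic median was 0.23, with 17 of 18 positive, and the mitochondrial median -0.03, with 5 of 15 positive. Without ND-75KDstrong replicate 4 they were 0.02, with 9 of 18 positive, and -0.26. Without both they were 0.11, with 14 positive, and -0.13. Within genotypes the median log2 CPM of a class varied between libraries with an SD of 0.22 for the cytosolic and 0.19 for the mitochondrial genes, beside medians that ran from -0.26 to 0.23 in these settings. The fat body markers *Fbp1* and *Lsp1gamma*, 2 of 8, were called higher than in control, with summed levels of 27881 to 68296 CPM against 34573 to 41504 CPM, and 0 of 5 muscle markers were called by either tool, with 0 at an unadjusted p under 0.05.

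The direct comparison of the knockdowns gave the single synthetase called by the main test. *GluProRS* was higher in ND-75KDstrong than in ND-75KDweak by 0.55 ± 0.13 on the log2 scale (edgeR adjusted p = 0.0179, rank 798 of 10638 features by p), or 46.9% in the fitted level, and higher in 4 of 4 libraries. Of the 18 cytosolic genes 1 was thus called higher and 0 lower, where 8.18% of all features were called higher and 3.09% lower, so the share of the class was near the background. DESeq2 also called *GluProRS* (adjusted p = 0.00255) and a second gene, *MetRS*. Of the 15 mitochondrial genes 0 were called by either tool. The call of *GluProRS* was lost without ND-75KDweak replicate 1 (0.51, adjusted p = 0.0692), replicate 3 (0.56, adjusted p = 0.0529) or replicate 4 (0.50, adjusted p = 0.0677). It held without ND-75KDstrong replicate 4, the library with the highest level (0.46 ± 0.11, adjusted p = 0.0182).

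*GluProRS* (FBgn0005674) is the longest of the 33 genes in the tables, with 5453 exonic bases in 7 exon blocks on chromosome 3R, positions 23952136 to 23958391 of the BDGP6 (dm6) assembly, on the minus strand. Of these bases 16.6% are shared with the antisense RNA *asRNA:CR46092*, and the library kit did not keep strand. That RNA had at most 1 count in any library, but unstranded reads in the shared bases could not be split. The count may therefore miss reads of that RNA.

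*MetRS*, the cytosolic methionine enzyme, which charges both the initiator and the elongator tRNA, measured 23.8, 24.1, 30.2 and 26.8 CPM in the controls, 21.9, 26.4, 20.2 and 19.01 CPM in ND-75KDweak and 28.0, 29.0, 27.0 and 41.3 CPM in ND-75KDstrong. The knockdowns did not overlap, and the controls lay across both (0.53 ± 0.16 between the knockdowns, edgeR adjusted p = 0.0606, DESeq2 adjusted p = 0.0357). *ValRS*, the valine enzyme, measured 41.7, 46.3, 46.3 and 51.3 CPM in the controls, 44.0, 50.3, 44.2 and 41.1 CPM in ND-75KDweak and 50.1, 51.9, 52.9 and 62.9 CPM in ND-75KDstrong. Here 1 ND-75KDweak library, replicate 2, lay above the lowest ND-75KDstrong library (0.29 ± 0.11, adjusted p = 0.123). *ArgRS*, the arginine enzyme, measured 14.7, 19.8, 17.6 and 18.2 CPM in the controls, 17.5, 16.2, 14.8 and 15.1 CPM in ND-75KDweak and 18.1, 17.6, 19.4 and 21.4 CPM in ND-75KDstrong. The knockdowns were separated by a narrow margin (0.28 ± 0.11, adjusted p = 0.135).

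**Figure D3:**
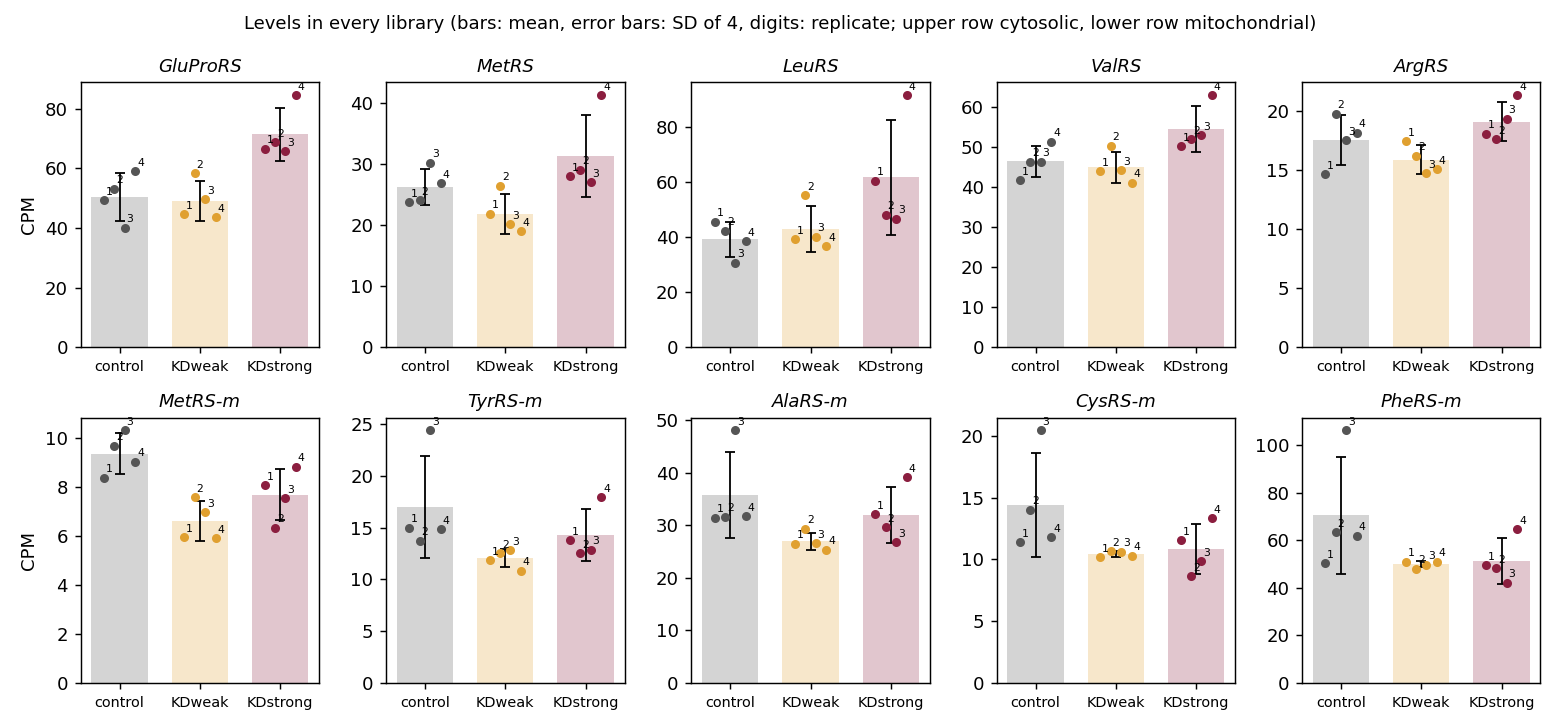
CPM in every library for the 10 synthetases named from the tests, cytosolic forms in the upper row and mitochondrial forms in the lower row. Bars are means, error bars SD of 4 libraries and digits replicate numbers. *GluProRS* lies between 65.7 and 84.6 CPM in ND-75KDstrong, above all other libraries, and replicate 4 is the highest ND-75KDstrong library in each panel.

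Across the cytosolic class, 17 of 18 genes had a positive log2 fold change between the knockdowns, *LysRS* being the exception, with a median of 0.24 against 0.02 over all features, 52.0% of which were positive. The mitochondrial class had 11 of 15 positive and a median of 0.07. With no adjustment, 7 cytosolic genes passed p under 0.05, all higher, and among mitochondrial genes *ValRS-m* was higher (0.40) and *IleRS-m* lower (-0.33). Of all 10638 features, 24.0% reached that level, 1586 of them higher and 971 lower. Besides *GluProRS*, *MetRS* and *ArgRS* upwards, *GluRS-m* was separated downwards, where 10.6% and 7.65% of all features were separated. Genes whose mammalian counterparts are in the multisynthetase complex, a grouping made with the results known, had a median of 0.26 and the other 10 cytosolic genes one of 0.24. Against control the medians were 0.26 and 0.04 in ND-75KDstrong and -0.08 and -0.20 in ND-75KDweak. Without control replicate 3 alone the ND-75KDstrong medians were 0.29 and 0.22, and without ND-75KDstrong replicate 4 alone 0.10 and -0.10. Without both libraries they were both 0.11. In ND-75KDweak without control replicate 3 the medians were -0.10 and -0.05. The contrast against control thus depended on which libraries were left out, and the difference between the groups was not tested.

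ND-75KDstrong replicate 4 carried part of this shift. It was the highest ND-75KDstrong library for 18 of 18 cytosolic genes, with a median of 0.55 above the median of the other 3 libraries on the log2 scale, and for 12 of 15 mitochondrial genes, with a median of 0.39. Without it the cytosolic median between the knockdowns was 0.11, with 13 of 18 positive, and the mitochondrial median was -0.01, with 6 of 15 positive. Without this library and ND-75KDweak replicate 2 they were 0.14, with 15 positive, and -0.03, with 7 positive. In that smaller set *GluProRS*, *LeuRS*, *MetRS* and *ValRS* were called higher, *LysRS* lower and *ValRS-m* higher. The share of all features called in that set was not counted. These calls therefore have no background share beside them and are not a result about the class.

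Tissue markers also separated the knockdowns. The photoreceptor markers summed to between 33079 and 41521 CPM in ND-75KDstrong and between 44485 and 50173 CPM in ND-75KDweak, and 1 of 8, the rhodopsin gene *ninaE*, was called lower (-0.51 ± 0.14, adjusted p = 0.0384). The fat body genes *Fbp1*, *Fbp2* and *Lsp1gamma* were called higher, although the summed level of that list overlapped, at 27881 to 68296 CPM against 50766 to 71826 CPM. Of the muscle markers *Mlc2* and *wupA* were called higher. Against control, 0 of 8 photoreceptor markers were called in either knockdown by edgeR or DESeq2, with 1 and 2 at an unadjusted p under 0.05. Whether the makeup of the heads contributed to the shift of the synthetases was not tested.

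Among the control libraries, replicate 3 deviated most for *HisRS* and *IleRS-m*, which have nearly the same length, 2862 and 2900 bases. Measured against the median of the other 3 controls, it was higher by 1.46 on the log2 scale for *HisRS* (75.7, 91.6, 246 and 89.3 CPM in replicates 1 to 4) and lower by -0.93 for *IleRS-m* (7.25, 6.22, 3.26 and 5.88 CPM). Over the 33 synthetases, which share the library, the deviation nevertheless fell with the length in the tables, with a Pearson r of -0.60 and a Spearman rho of -0.64, and over 9627 protein-coding genes rho was -0.61. ND-75KDstrong replicate 4 showed a rho of -0.51 over 9638 protein-coding genes but only -0.11 over the synthetases, where the longest gene, *GluProRS*, and the long *LeuRS* and *IleRS* were also raised. Length correlations of the opposite sign, with rho from 0.41 to 0.49 over protein-coding genes, were found in control replicates 1 and 4 and in ND-75KDstrong replicates 2 and 3, each set against the other 3 libraries of its genotype. ND-75KDweak replicates 1 and 2 had a rho of 0.21 and 0.34. Negative values were also found in ND-75KDstrong replicate 1 (-0.40), control replicate 2 (-0.29) and ND-75KDweak replicates 3 and 4 (-0.25 and -0.31). These correlations describe genes within a library, and genes are not replicates.

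**Figure D4:**
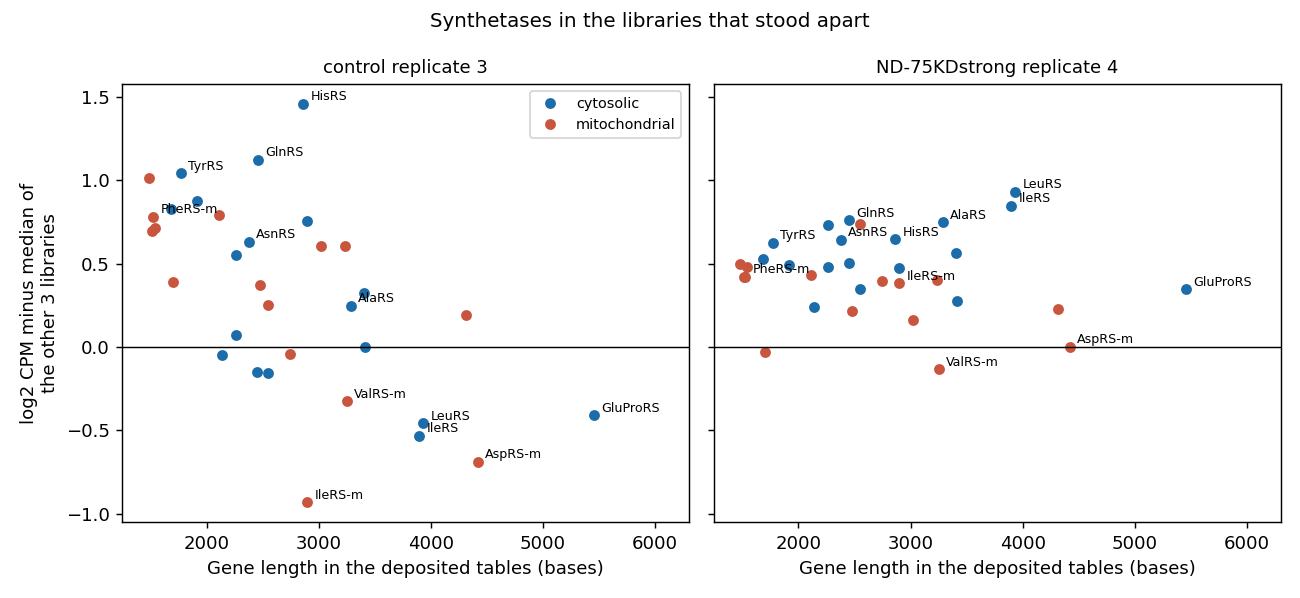
Deviation of control replicate 3 (left) and ND-75KDstrong replicate 4 (right) from the median of the other 3 libraries of their genotype, as log2 CPM, against gene length in bases, with 1 point per synthetase. On the left the points range from 1.46 for *HisRS* to -0.93 for *IleRS-m*, which are nearly equal in length, and most of the longest genes lie below 0; on the right most points are above 0 at every length.

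The forms were also set side by side within each library. Pairs of a cytosolic and a mitochondrial gene for the same amino acid could be formed 14 times, 12 by name and 2 by setting *GluProRS* against *GluRS-m* and against *ProRS-m*. In 11 pairs the cytosolic gene had the higher FPKM in every library, and in 0 pairs the mitochondrial one. The exceptions were *AspRS*, *CysRS* and *LeuRS* over their mitochondrial forms. For *AspRS*, 76.3% of the exonic bases are shared with other genes on the annotation, antisense RNAs among them, so its level is uncertain. The largest ratios were those of *AsnRS* over *AsnRS-m*, with a mean of 11.1 ± 1.42 (SD, n = 4) in the controls.

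The ratio of *MetRS* to *MetRS-m* was 3.60, 3.16, 3.72 and 3.77 in the controls, 4.67, 4.43, 3.67 and 4.08 in ND-75KDweak and 4.40, 5.81, 4.54 and 5.94 in ND-75KDstrong. The ratio of *LeuRS* to *LeuRS-m* was 1.52, 1.34, 0.642 and 1.07 in the controls, 1.23, 1.85, 1.198 and 1.14 in ND-75KDweak and 1.94, 1.60, 1.72 and 2.72 in ND-75KDstrong. In both pairs every ND-75KDstrong library was above every control library. The pairs for arginine and cysteine were separated in the same direction, and 0 of 14 in the other, with 10 overlapping. Between the knockdowns 4 pairs were separated, all higher in ND-75KDstrong: *IleRS*, *TrpRS* and *GluProRS* over each of its partners. *GluProRS* over *GluRS-m* was 4.38, 6.07, 4.53 and 3.90 in ND-75KDweak and 7.04, 7.43, 7.96 and 9.31 in ND-75KDstrong. In ND-75KDweak against control only the cysteine pair was separated, and upwards. The ratios were not tested across all genes, so these counts have no background share beside them and are not a result about the class. Both *GluProRS* pairs share a gene and are not separate instances.

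**Figure D5:**
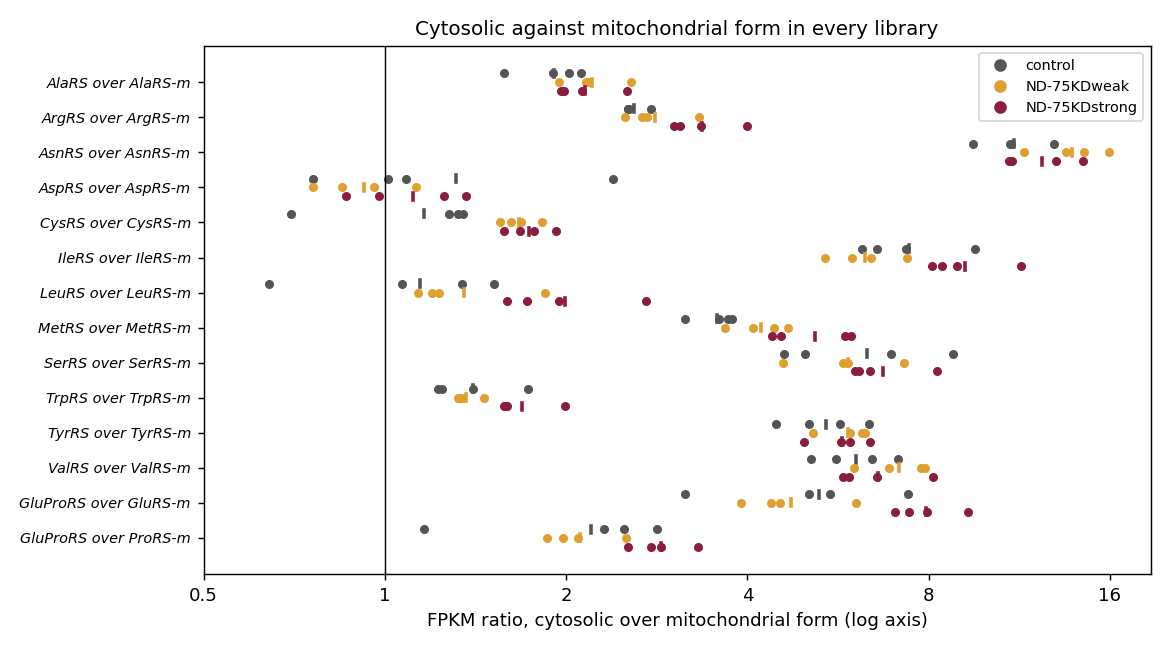
FPKM ratio of the cytosolic to the mitochondrial gene for 14 pairs in every library, on a log axis, with controls in grey, ND-75KDweak in yellow, ND-75KDstrong in red and the mean as a tick. Ratios above 1 mean that the cytosolic gene was higher; for *MetRS* all ND-75KDstrong points, 4.40 to 5.94, are right of the controls, 3.16 to 3.77.

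Genes that act beside the synthetases were counted from lists chosen with earlier results of these data known. Over all features edgeR called 2.56% higher and 3.98% lower in ND-75KDweak against control. In ND-75KDstrong against control it called 1.78% and 0.589%, and between the knockdowns 8.18% and 3.09%. At an unadjusted p under 0.05 the shares were 20.7%, 11.4% and 24.0%. These shares stand beside the edgeR counts of each list below and of the tissue markers above. Of the scaffold and amidotransferase genes, 6 of 7 were found. *AIMP3*, whose mammalian counterpart is a scaffold of the multisynthetase complex, was higher in ND-75KDstrong than in ND-75KDweak, with a mean of 24.9 ± 2.16 CPM against 18.7 ± 1.83 CPM and no overlap (0.43 ± 0.11, edgeR adjusted p = 0.0326). The other scaffold genes *AIMP1* and *AIMP2* and the genes *GatA* and *GatB*, whose products make glutaminyl-tRNA from glutamyl-tRNA in mitochondria, were not called in any comparison. Against control 0 of these 6 were called by edgeR or DESeq2, with 1 at an unadjusted p under 0.05 in ND-75KDweak and 0 in ND-75KDstrong.

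Among 13 genes for eIF2, its kinases, its exchange factor eIF2B and ATF4, *eIF2Bdelta*, a regulatory subunit of the exchange factor, was called higher in ND-75KDweak than in control, with a mean of 27.9 ± 2.01 CPM against 19.5 ± 0.759 CPM (0.52 ± 0.12, adjusted p = 0.02). None of the 13 was called by edgeR in the other comparisons, where 2 and 2 passed an unadjusted p under 0.05 and DESeq2 called 1 against control. The transcript of *crc* measured 353, 367, 336 and 260 CPM in the controls, 369, 388, 318 and 355 CPM in ND-75KDweak and 371, 327, 317 and 412 CPM in ND-75KDstrong. The 3 groups overlapped, with log2 fold changes of 0.13 and 0.12 against control (adjusted p = 0.655 and 0.878). ATF4 is regulated mainly in translation, which these counts do not measure. By antibody staining of adult brain, the study reported ATF4 protein raised with the strong knockdown but not with the weak one.

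Of 11 amino acid synthesis genes, *AsnS*, the asparagine synthetase, and *Nmdmc*, a mitochondrial folate enzyme, were higher in ND-75KDweak than in control, by 1.08 ± 0.22 (adjusted p = 0.0135) and 0.74 ± 0.16 (adjusted p = 0.02). DESeq2 called the same number higher there and 2 genes lower, *CG6287* and *Gs1* (adjusted p = 0.0141 and 0.00474). In ND-75KDstrong against control 0 were called by edgeR and 1 by DESeq2, with 2 at an unadjusted p under 0.05. *Gs1*, the mitochondrial glutamine synthetase, was higher in ND-75KDstrong than in ND-75KDweak (0.62 ± 0.12, adjusted p = 0.00625). Of 7 amino acid transporter genes, *slif*, a carrier of cationic amino acids, was at 34.5 ± 6.23 CPM in the controls, 21.6 ± 1.54 CPM in ND-75KDweak and 37.4 ± 7.52 CPM in ND-75KDstrong. It was lower in ND-75KDweak than in control (-0.66 ± 0.15, adjusted p = 0.0231) and higher in ND-75KDstrong than in ND-75KDweak (0.81 ± 0.15, adjusted p = 0.00584). The transporter gene *sbm* was also higher in ND-75KDstrong than in ND-75KDweak (0.35 ± 0.10, adjusted p = 0.0484). Of these 7, 0 were called in ND-75KDstrong against control by either tool, with 1 at an unadjusted p under 0.05.

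The factors that use the charged tRNAs came next. Of 9 cytosolic elongation and release factors, *eEF1alpha2*, which carries charged tRNA to the ribosome, was lower in ND-75KDstrong than in ND-75KDweak, at 573 ± 30.05 CPM against 837 ± 41.2 CPM (-0.53 ± 0.10, adjusted p = 0.00667). Against control 0 of the 9 were called by either tool, with 2 and 0 at an unadjusted p under 0.05. Of 9 mitochondrial translation factors edgeR called 0 in each comparison, with 4, 1 and 3 at an unadjusted p under 0.05, and DESeq2 called 1 lower in ND-75KDweak against control. Over all features 20.7%, 11.4% and 24.0% reached that unadjusted level. The median log2 fold changes of these factors were -0.30 and -0.12 against control and 0.18 between the knockdowns. Over all features tested the medians were -0.0065, -0.015 and 0.016.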

How the data were processed

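The authors' deposited tables, 3 in number, hold raw counts per gene for the 8 libraries of each pair of genotypes. Of tools, the submitters' notes list featureCounts, HISAT2, fastp and DESeq2; for their versions, nothing is given in the sources used here. Deposited FPKM values served as an alternative for control levels; 24 columns of normalized counts, 6 columns of group means and the authors' fold changes and p-values were not used. The members and gene lists were chosen with earlier results of these data known.

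For each comparison, its own 8 libraries were fitted with the quasi-likelihood test of edgeR 4.0.16 in R 4.3.3 (filterByExpr with a minimum count of 10 and total of 15, TMM, Benjamini-Hochberg over all features tested, called at an adjusted p under 0.05). Levels are CPM with TMM factors over 12 libraries, and FPKM divide these by the length in the tables. In the fit of 12 libraries a feature missing from a table was set to 0. Named genes are those called in any comparison, the 4 members with the smallest p in each, the 4 highest and lowest control levels of each class, *ND-75* and *crc*, and up to 4 called genes per list and direction. Lists were matched by symbol; 2 listed genes were not found. Coordinates of all 33 genes equal those of the Ensembl annotation of BDGP6, in which 16 share exons with another gene, 5 of them over 10% of their exonic bases. The tests were checked on simulated counts. Alternatives were DESeq2 1.42.0, its size factors, no filter, protein-coding genes only, 1 fit of all libraries, a replicate block and leaving out libraries. Python 3.11.15 with pandas 2.3.3 and matplotlib 3.10.9 was used.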

Additional observations from a re-analysis of the deposited data

Results flagged for a closer look

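Of 111 groups of 4 libraries tested for a library far from the others, 17 had one, where chance gives about 1 in 20 for a single group. The genes share the same 12 libraries, so the groups are not separate trials. The count therefore does not measure an excess over chance. Control replicate 3 was that library 9 times, high in each: *HisRS* at 246 CPM, *TyrRS* at 179, *ThrRS* at 161, *alpha-PheRS* at 78.7, *AlaRS-m* at 48.1, *TrpRS* at 37.4, *TrpRS-m* at 31.9, *TyrRS-m* at 24.4 and *ProRS-m* at 9.59 CPM. ND-75KDstrong replicate 4 was high 5 times, in *LysRS* at 146 CPM, *IleRS* at 101, *AlaRS* at 100.6, *GluProRS* at 84.6 and *MetRS* at 41.3 CPM. ND-75KDweak replicate 2 was high for *IleRS* at 72.7 CPM and *GlnRS* at 45.3 CPM. Control replicate 4 was low for *LysRS*, at 65.6 CPM.

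The effects of the knockdowns on *GluProRS* differed by 0.55 on the log2 scale in the direct edgeR test between them.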

How the results depend on the processing

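No fold change called by the main test reversed under any alternative. DESeq2 called 1 mitochondrial gene lower in ND-75KDweak (*MetRS-m*), 2 cytosolic genes higher between the knockdowns, and *ND-75* lower in ND-75KDstrong against control (-0.78, adjusted p = 0.0155), as did the fit of all 12 libraries (-0.80, adjusted p = 0.0322). With control replicate 3, ND-75KDweak replicate 2 and ND-75KDstrong replicate 4 left out of the comparisons they entered, 3 mitochondrial genes were lower in ND-75KDweak against control, and between the knockdowns 4 cytosolic genes were higher, 1 lower and 1 mitochondrial gene higher; *ND-75* was then lower in ND-75KDweak (-0.40, adjusted p = 0.0237) and in ND-75KDstrong (-0.62, adjusted p = 0.0223). Leaving out 1 library at a time gave 0 to 2 cytosolic genes higher between the knockdowns (0 without ND-75KDweak replicate 1, 3 or 4, and 2 without replicate 2), 0 to 1 mitochondrial genes higher (*ValRS-m*, without ND-75KDweak replicate 2) and 0 to 1 lower (*IleRS-m*, without ND-75KDstrong replicate 4). These sets hold fewer libraries, and the share of all features called in each was not counted. Their counts therefore have no background share beside them. The cause of each change was not tested. The log2 fold change of *GluProRS* between the knockdowns stayed between 0.46 and 0.64 over these settings. Libraries of the same number did not deviate together (correlations from -0.42 to 0.12), so the numbers were not taken as pairs; with the replicate block *GluProRS* was higher by 0.56 (adjusted p = 0.0347). With the deposited FPKM the control class medians were 14.9 and 5.17. In the lowest members, depth limits what can be detected: *GluRS-m* had 56 to 107 counts per control library.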
